A study of Mus musculus with 9 samples.

Results

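The miR-191 and miR-425 cluster is a pair of microRNA hairpins that lie next to each other on mouse chromosome 9. Its members were taken by name, as every miRNA of the sequencing table that begins with miR-191- or miR-425-, and 3 of the 358 miRNAs in the table met this rule: miR-191-5p, miR-425-5p and miR-425-3p. The other arm of the first hairpin, miR-191-3p, was not analysed here. Epididymosomes, the small membrane vesicles that the epididymal epithelium releases into the lumen of the duct, had been purified from the caput, corpus and cauda epididymis of inbred male Swiss mice aged 8 weeks. The labels name no transgene, deletion or treatment for any group, and the segment is what they give as differing between groups. Each segment was represented by 3 libraries, and each library came from pooled RNA of several animals, which makes a replicate a pool and not a single mouse. The deposited level is CPM, the number of reads of a miRNA divided by all miRNA reads of its library and scaled to the same total in every library.

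Each miRNA hairpin can yield a mature strand from its 5′ arm (5p) and from its 3′ arm (3p), and commonly one of these is retained while the other is degraded. A mature miRNA recognises its target transcripts chiefly through its seed, bases 2 to 8 from the 5′ end. Hairpins that lie this close on the same strand are usually cut from a shared primary transcript, after which each mature strand is loaded and turned over separately. miR-191-5p is abundant in many tissues and has often been used as an internal reference for RT-qPCR of miRNAs. Within the epididymis, epididymosomes are known for carrying proteins and small RNAs to maturing spermatozoa.

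The 3 members and the missing arm are shown here as mature sequences from RefSeq for GRCm38.p6, since they show that the cluster does not form a seed family. The seed is in capitals.
miR-191-5p: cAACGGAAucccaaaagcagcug
miR-191-3p: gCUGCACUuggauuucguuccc
miR-425-5p: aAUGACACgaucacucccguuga
miR-425-3p: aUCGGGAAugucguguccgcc

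The seeds of these 4 strands all differ. No other mouse mature miRNA in RefSeq had the seed of miR-191-5p or of miR-425-3p. The seed of miR-425-5p was shared with 1 other, miR-489-3p, which was not among the miRNAs of the table. Over an ungapped overlap of at least 20 bases, the closest other mature sequence differed from miR-191-5p at 7 bases, from miR-425-5p at 8 bases and from miR-425-3p at 7 bases, and each member has 1 locus. The letters GGAG and CCCU, which are known from other cells as motifs of miRNAs sorted into vesicles, were searched on the RNA strand in the part of each mature sequence from its midpoint to its 3′ end. Neither was present there in any of the 3 members. Among the 299 miRNAs of the table that matched a RefSeq name, 2.34% held GGAG and 2.68% held CCCU in that part, and as none held both, 5.02% held either.

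The hairpins are shown next, with the mature arms in capitals, because both arms of Mir425 but only the 5p arm of Mir191 could be followed. Mir191 spans chr9:108568319-108568392 and Mir425 spans chr9:108568777-108568861, both on the plus strand, with 384 bases between them.
Mir191: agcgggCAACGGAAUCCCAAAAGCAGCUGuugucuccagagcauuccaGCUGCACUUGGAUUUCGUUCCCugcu
Mir425: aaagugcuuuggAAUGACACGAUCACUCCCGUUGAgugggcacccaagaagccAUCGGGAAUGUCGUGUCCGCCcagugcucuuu

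In RefSeq both hairpins fall within the span of Dalrd3, 835 and 1293 bases after its start at position 108567484. In GENCODE M21, Dalrd3 begins at position 108569886, which leaves both hairpins upstream of it, the nearer of them by 1025 bases. The gene before the cluster is Ndufaf3, a mitochondrial complex I assembly factor, on the minus strand. Whether the hairpins lie inside a gene thus depends on the gene model, exons were not compared, and host transcripts were not measured in these libraries.

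miR-191-5p was the dominant member in every library. Its level was 11005, 23291 and 22333 CPM in the 3 caput libraries, with a mean of 18876 ± 6834 (SD, n = 3). The corpus libraries held 7493, 13121 and 8689 CPM, with a mean of 9768 ± 2965 (SD, n = 3). The cauda libraries held 4814, 5630 and 8124 CPM, with a mean of 6189 ± 1724 (SD, n = 3). All 3 caput libraries stood above all 3 cauda libraries, whereas the first caput library lay below the second corpus library and the third cauda library lay above the first corpus library. By mean level miR-191-5p ranked 5th of the 358 miRNAs among caput values, 13th among corpus values and 14th among cauda values. The authors had selected miR-191 for high abundance in caput epididymosomes when they tested miRNA transfer to spermatozoa, so its caput level is given as a description. Between 9634 and 192720 reads stood behind each value.

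miR-425-5p was far less abundant. It stood at 370.2, 222.6 and 419.1 CPM in the caput libraries, at 418.7, 531.1 and 387.5 CPM in the corpus libraries, and at 290.3, 313.1 and 470.4 CPM in the cauda libraries. The segment means were 337.3 ± 102.3, 445.7 ± 75.5 and 358 ± 98.1 CPM (SD, n = 3 each). The libraries of every pair of segments overlapped, and the mean placed it at rank 73, 78 and 88 of the 358 miRNAs in the caput, corpus and cauda.

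miR-425-3p, the opposite arm of the same hairpin, was close to the detection level of 10 CPM throughout. The caput libraries held it at 12.65, 12.21 and 13.01 CPM, the corpus libraries at 15.02, 10.97 and 12.27 CPM, and the cauda libraries at 8.495, 11.9 and 8.31 CPM. These values rest on 143 reads at the most and on 17 reads in the first cauda library, where counting error alone amounts to 24.3% of the value. The cauda libraries all lay below the caput libraries, by a margin of 11.9 against 12.21 CPM at the nearest, in the second library of each. Counting error was 19.6% in that cauda library and 9.95% in that caput library, and the margin is smaller than either.

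**Figure D1:**
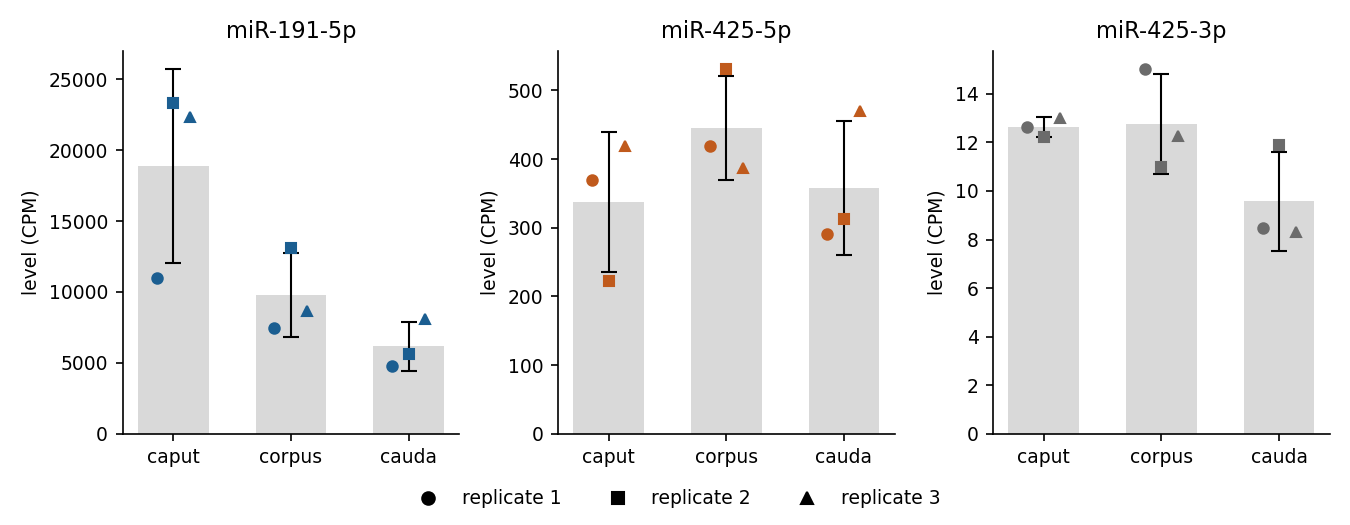
Level of each cluster member in CPM (vertical axes, linear and starting at 0, a different range in each panel) by epididymal segment (horizontal axis); points are the 3 libraries, bars the mean and whiskers 1 SD. The caput libraries of miR-191-5p, at 11005 to 23291 CPM, lie above its cauda libraries, at 4814 to 8124 CPM, while the miR-425-5p libraries of the 3 segments overlap.

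Between the caput and the cauda, miR-191-5p fell 2.96-fold, a log2 fold change of -1.57 (SE 0.34, 95% interval -2.28 to -0.86, limma on log2(CPM + 1), adjusted p = 0.00132), and was lower in 3 of 3 cauda libraries than in any caput library. It was therefore differentially accumulated, the term used here for an adjusted p under 0.05 with a change of at least 2-fold. Most changes went the other way between these segments: 49.0% of the 349 miRNAs tested were differentially accumulated, 135 higher and 36 lower in the cauda, so that 10.3% were lower like miR-191-5p. The median of all miRNAs tested was 0.81, which puts miR-191-5p 2.38 below it on the log2 scale. In size its fall ranked 26th of those tested. Across all miRNAs tested, 51.3% passed at an adjusted p under 0.05 whatever the fold, and 54.2% had caput and cauda libraries that did not overlap.

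The remaining members did not pass between the caput and the cauda. miR-425-5p had a log2 fold change of 0.10 (SE 0.39, 95% interval -0.73 to 0.93, limma adjusted p = 0.841), an interval that leaves room for a change of under 2-fold in either direction. For miR-425-3p the log2 fold change was -0.38 (SE 0.42, 95% interval -1.26 to 0.50, limma adjusted p = 0.465).

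The step from the caput to the corpus did not pass for any member. miR-191-5p had a log2 fold change of -0.91 (SE 0.34, 95% interval -1.62 to -0.21) with a limma adjusted p of 0.0597. Against this background, 23.1% of the 321 miRNAs tested passed, 22.4% were differentially accumulated and 3.43% were so with a lower level in the corpus, while 34.9% had libraries of the 2 segments that did not overlap. The call for miR-191-5p turned on single libraries. Without the first caput library the log2 fold change was -1.27 (limma adjusted p = 0.0151), and without the second corpus library it was -1.15 (limma adjusted p = 0.0438). It did not pass when any of the other 7 libraries was left out. Without the first corpus library it was -0.74 (limma adjusted p = 0.202). miR-425-5p had a log2 fold change of 0.44 (SE 0.39, limma adjusted p = 0.43) and miR-425-3p one of 0.00 (SE 0.42, limma adjusted p = 0.993).

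From the corpus to the cauda no member passed either. The log2 fold change was -0.65 for miR-191-5p (SE 0.34, 95% interval -1.36 to 0.06, limma adjusted p = 0.189), -0.34 for miR-425-5p (limma adjusted p = 0.591) and -0.39 for miR-425-3p (limma adjusted p = 0.557). Of the 342 miRNAs tested, 20.2% passed, 19.0% were differentially accumulated and 46.2% had libraries that did not overlap. By mean CPM the order of miR-191-5p was caput, corpus, cauda. With library size scaling and segment as the sole factor over all 9 libraries, its ends were told apart and neither neighbouring pair of segments passed. The caput and the corpus did pass under the 4 other scalings of the libraries. They also passed with replicate number as a block (limma adjusted p = 0.0287), though the labels do not say what a shared number means. The comparisons share libraries, so that their values for a member are not independent of each other.

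**Figure D2:**
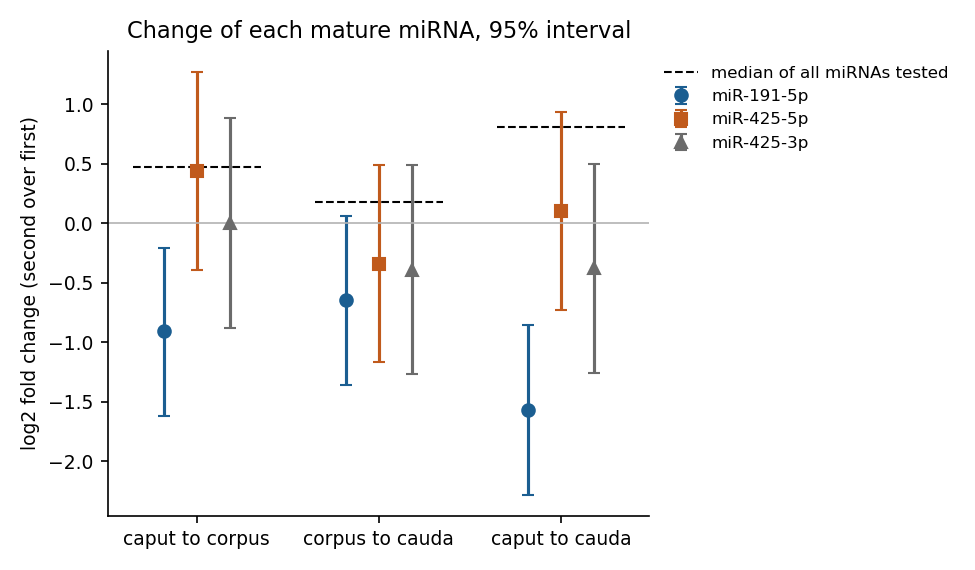
Log2 fold change of each member (vertical axis, second segment over first) in the 3 comparisons (horizontal axis), with 95% intervals from limma; dashed lines mark the median of all miRNAs tested, at 0.47, 0.18 and 0.81. The interval of miR-191-5p from caput to cauda, -2.28 to -0.86, lies below 0, while those of both miR-425 strands include 0 in each comparison.

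CPM depends on what else is in the library, and the libraries differed in this. miR-10a-5p and miR-10b-5p, a pair of related miRNAs from the Hox gene clusters, together took 50.5% to 71.3% of the reads in the caput libraries, 50.3% to 53.2% in the corpus libraries and 33.2% to 34.5% in the cauda libraries. miR-143-3p, abundant in smooth muscle, took 28.7% to 35.2% of the reads in the cauda and at most 12.1% elsewhere. The second caput library had the highest share of miR-10a-5p and miR-10b-5p, and it also held the highest miR-191-5p level and the lowest miR-425-5p level. Under TMM normalization, which scales libraries by a trimmed mean over many miRNAs, the median caput to cauda change of all miRNAs tested moved from 0.81 to 0.13, and the differentially accumulated miRNAs were 87 higher and 71 lower in the cauda. In the same way, the caput to corpus split was 61 higher and 11 lower with library size and 42 higher and 49 lower with TMM.

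The fall of miR-191-5p from the caput to the cauda passed under all scalings tried, and its size depended on them. The log2 fold change was -1.72 with library sizes counted without miR-10a-5p, miR-10b-5p and miR-143-3p, -1.92 when scaled to 16 reference miRNAs, -2.24 with TMM and -2.29 with median-of-ratios scaling, where the limma adjusted p was 6.2e-04. Its caput to corpus change passed under these scalings, with log2 fold changes of -1.21, -1.36, -1.49 and -1.44 in the same order and limma adjusted p of 0.0195, 0.0159, 0.0141 and 0.0158. For miR-425-5p the direction from the caput to the cauda was not fixed: its log2 fold change of 0.10 became -0.05, -0.25, -0.57 and -0.62 under these scalings, the last with a limma adjusted p of 0.0528. miR-425-3p had log2 fold changes of -1.01 under TMM and -1.05 under median-of-ratios scaling, and passed in both (limma adjusted p of 0.0336 and 0.0257). Which scaling is nearest to the RNA content of the vesicles was not tested.

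**Figure D3:**
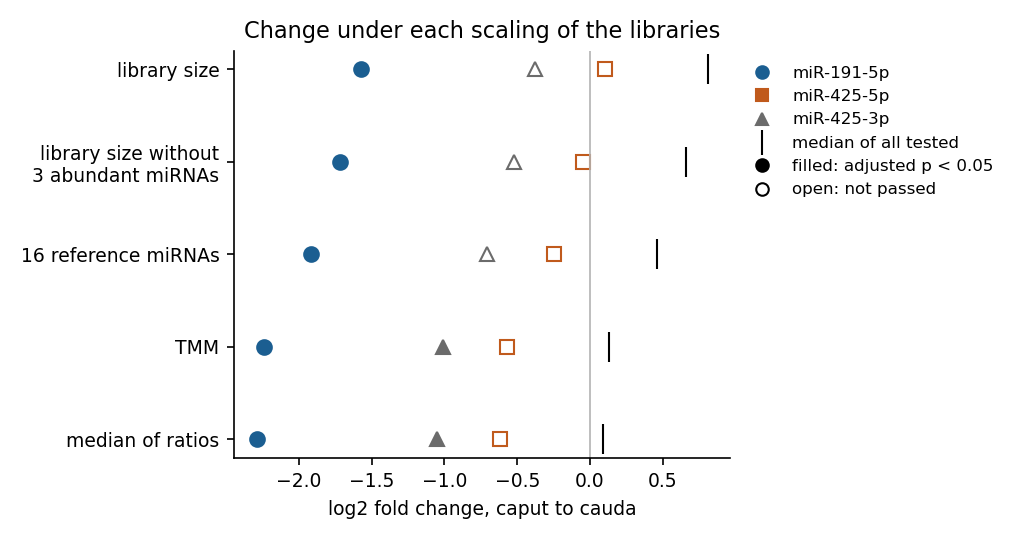
Caput to cauda log2 fold change (horizontal axis) of each member under 5 scalings of the libraries (rows), with filled symbols where the limma adjusted p was under 0.05 and a vertical tick at the median of all miRNAs tested. miR-191-5p is filled in every row and runs from -1.57 to -2.29, miR-425-5p is open in every row and changes sign, and miR-425-3p is filled in the last 2 rows.

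A ratio of members within a library does not depend on its scaling. The ratio of miR-191-5p to miR-425-5p was 29.7, 105 and 53.3 in the caput libraries, 17.9, 24.7 and 22.4 in the corpus libraries, and 16.6, 18.0 and 17.3 in the cauda libraries. All caput libraries lay above all others, and the cauda libraries were nearly alike, with a log2 ratio of 4.11 ± 0.06 (SD, n = 3) against 5.78 ± 0.91 (SD, n = 3) in the caput and 4.43 ± 0.24 (SD, n = 3) in the corpus. The ratio differed between the segments (exact permutation test of the F statistic over 280 divisions of the 9 libraries, p = 0.00714, where the smallest possible is 0.00357). This test takes the libraries as exchangeable. With SDs as unequal as these, its p does not measure a shift of the mean alone. The mean ratio on the log2 scale differed by -1.67 (SE 0.53) from the caput to the cauda, 3.18-fold, and by -1.35 (SE 0.54) from the caput to the corpus, 2.56-fold. Each of these pairs gave p = 0.1 in a two-sided exact permutation test, the smallest that 3 against 3 libraries allow, and 0.15 after adjustment over the 3 pairs. The corpus and cauda differed by -0.32 (SE 0.14) on the log2 scale (two-sided exact permutation test, p = 0.2, adjusted p = 0.2). Without the second caput library, where the ratio was highest, the caput to cauda difference was -1.20 and the exact permutation p between segments was again 0.00714. Leaving out any 1 corpus or cauda library raised this exact permutation p to between 0.0393 and 0.0464. CPM of different miRNAs also carry the ligation preferences of library preparation, so the size of the ratio in a segment is not a ratio of molecules.

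**Figure D4:**
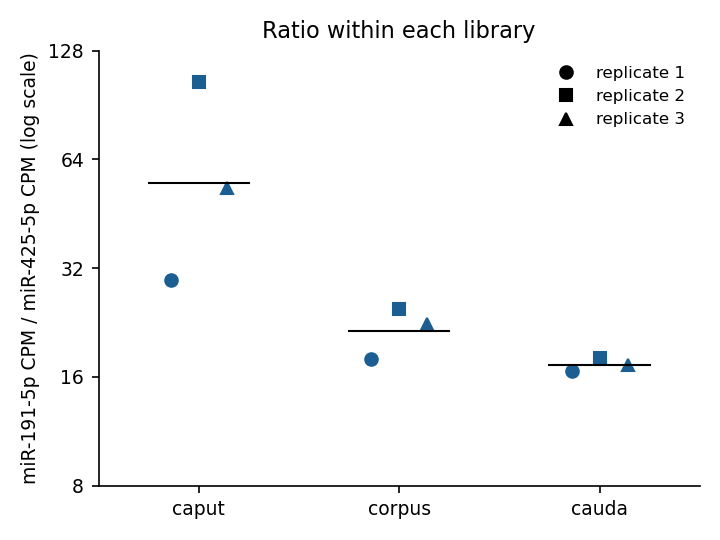
Ratio of miR-191-5p CPM to miR-425-5p CPM in each library (vertical axis, log scale) by segment (horizontal axis); points are the 3 libraries and lines the mean on the log2 scale. The caput libraries, from 29.7 to 105, all lie above the corpus libraries, from 17.9 to 24.7, and the cauda libraries, from 16.6 to 18.0.

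Of the reads of the cluster, miR-191-5p made up 94.2% to 99.0% in each library, and the share of miR-425-5p was 0.946% to 5.68%. The highest shares of miR-425-5p were in the cauda libraries, at 5.26% to 5.68%, though the first corpus library had 5.28%.

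The arms of the miR-425 hairpin shown above kept a strong 5p bias in every segment. The ratio of miR-425-5p to miR-425-3p was 29.3, 18.2 and 32.2 in the caput libraries, 27.9, 48.4 and 31.6 in the corpus libraries, and 34.2, 26.3 and 56.6 in the cauda libraries. The segments overlapped, and the caput to cauda difference of 0.50 on the log2 scale (SE 0.39, 95% interval -0.35 to 1.35) did not pass in limma (adjusted p = 0.355). Among the 64 hairpins with both arms measured, 15.6% passed between the caput and the cauda. The caput to corpus and corpus to cauda differences were 0.44 and 0.07 (limma adjusted p of 0.573 and 0.911).

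The changes of neighbouring hairpins were set beside each other as a description. Only the 299 of 358 miRNAs that matched a RefSeq name could be placed, and those with several loci were left out. Among the hairpins so placed, 54 pairs were adjacent on the same strand within 10 kb, and some share a hairpin. Each hairpin was represented by its most abundant placed strand, which for miR-34c was the less abundant 3p strand. Neighbours without a match are therefore missing from these pairs. The caput to cauda log2 fold changes of the 2 strands differed by a median of 0.83 (quartiles 0.38 and 1.35). The difference of 1.67 between miR-191-5p and miR-425-5p was the 8th in size among these 54 pairs, a place that other strands or missing pairs could change. Chosen after the values were seen, the pair directly above it was miR-25-3p and miR-93-5p, of the miR-106b cluster, with a difference of 1.79. These differences are given with no test, and no pairs of distant hairpins were set beside them.

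Since miR-191-5p is in common use as a reference, its spread was set beside that of 16 other miRNAs used in this way. The SD of log2(CPM + 1) over the 9 libraries was 0.80 for miR-191-5p, which placed it at rank 174 of 358 from the steadiest, close to the median of 0.81. All 16 reference miRNAs had a smaller SD, with a median of 0.52, from 0.15 for miR-361-5p to 0.80 for miR-25-3p, which differed from miR-191-5p only after the second decimal. All 16 also had a smaller SD than miR-191-5p with TMM, median-of-ratios scaling and library sizes without the 3 abundant miRNAs, where the SD of miR-191-5p was 1.11, 1.12 and 0.88 and its rank 288, 290 and 227. miR-425-5p was among the steadiest miRNAs, with an SD of 0.38 and rank 17 in CPM, and SDs of 0.34, 0.36 and 0.21 at ranks 44, 54 and 5 under the other scalings in the same order. Only 2 of the reference miRNAs had a smaller SD than miR-425-5p in CPM, and 4, 5 and 1 did under the others. The SD of miR-425-3p was 0.26 in CPM, at rank 5, but 0.55 under both TMM and median-of-ratios scaling, at ranks 125 and 128, and 0.33 at rank 32 with library sizes without the 3 abundant miRNAs.

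The other scalings moved the changes of all miRNAs together, so that reference miRNAs with a change near 0 could change sign. In CPM, 4 of the 16 passed between the caput and the cauda, all of them higher in the cauda: miR-16-5p, miR-23a-3p, miR-25-3p and miR-26a-5p, the last by under 2-fold. Of all 349 miRNAs tested, 51.3% passed, 141 of them higher and 38 lower in the cauda. Such shares at an unadjusted p or under other scalings are not given here. None of the 16 passed in limma with a lower level there, the direction of miR-191-5p, and none was lower at an unadjusted p under 0.05. With limma-voom the counts were also 4 higher and 0 lower. Under TMM, however, 2 passed higher and 5 lower, under median-of-ratios scaling 2 and 6, and with library sizes without the 3 abundant miRNAs 6 and 2. The largest changes in CPM were log2 fold changes of 1.70 (SE 0.37) for miR-25-3p and 1.33 (SE 0.35) for miR-16-5p, both of which also passed higher under those 3 scalings. The smallest were 0.04 (SE 0.43) for miR-320-3p and 0.08 (SE 0.38) for miR-361-5p. The median of the 16 was 0.18 in CPM, against 0.81 for all miRNAs tested, and -0.49 under TMM, against 0.13.

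In the steps along the duct, miR-103-3p and miR-186-5p passed in CPM from the caput to the corpus, both higher in the corpus. Of all 321 miRNAs tested in this step, 23.1% passed in CPM, 62 higher and 12 lower. Under TMM only miR-423-3p of the 16 passed, lower in the corpus. With library sizes without the 3 abundant miRNAs, 3 passed higher and 0 lower. Of all miRNAs tested in this step, 42 were differentially accumulated higher and 49 lower under TMM, and 52 and 34 with those library sizes. From the corpus to the cauda none of the 16 passed in limma on CPM or in limma-voom. In each, 2 were higher and 1 lower at an unadjusted p under 0.05. Of all 342 miRNAs tested in this step, 20.2% passed in CPM. Among the 16, 2 passed higher and 4 lower under TMM, and 4 higher and 1 lower with library sizes without the 3 abundant miRNAs. Of all miRNAs tested, 56 were differentially accumulated higher and 34 lower under TMM, and 71 and 22 with those library sizes. As above, these counts need a 2-fold change and those of the 16 do not.

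**Figure D5:**
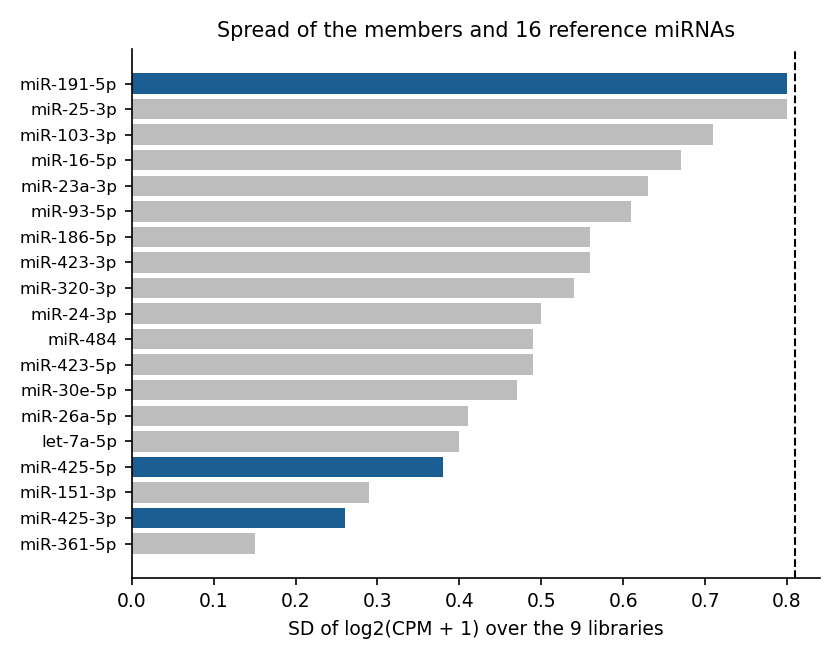
SD of log2(CPM + 1) over the 9 libraries (horizontal axis) for the cluster members (blue) and 16 reference miRNAs (grey), ordered by size; the dashed line is the median of all 358 miRNAs, 0.81. miR-191-5p, at 0.80, has the widest bar together with miR-25-3p, whereas miR-425-5p, at 0.38, and miR-425-3p, at 0.26, lie near the lower end.

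The miRNAs whose pattern over the 9 libraries was most like that of miR-191-5p were picked from 244 candidates by Pearson's r on log2(CPM + 1). They were miR-148a-5p (r = 0.93), miR-146b-5p (r = 0.93), miR-92b-3p (r = 0.87), let-7b-3p (r = 0.86) and miR-183-5p (r = 0.86). All 5 had their highest mean in the caput and their lowest in the cauda, as this choice favours. miR-146b-5p went from 4426 CPM through 771 to 293 CPM along the duct, and miR-183-5p, part of a cluster abundant in sensory epithelia, from 1892 to 1122 and 685 CPM. The correlation of miR-191-5p with miR-425-5p was -0.04, the 83rd of 244, and that with miR-425-3p was 0.38.

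A different set stood nearest to miR-425-5p: miR-93-5p (r = 0.93), miR-214-5p (r = 0.93), miR-30e-5p (r = 0.91), miR-200c-3p (r = 0.90) and miR-361-3p (r = 0.89). Their means were highest in the corpus, as this choice favours, since the mean of miR-425-5p was also highest there. miR-93-5p, for one, stood at 415, 713 and 371 CPM in the caput, corpus and cauda, and miR-200c-3p, an epithelial miRNA, at 1263, 1835 and 1441 CPM. The points of each of these correlations are libraries that share a segment, a total depth and the scaling by library size.

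The 9 libraries held between 1548581 and 11306605 miRNA reads, the median library of the caput holding 8453380, that of the corpus 2553385 and that of the cauda 2184582, so that depth moved with the segment. The summed levels of marker miRNAs of several cell types also differed between segments. Each sum is weighted to its most abundant members. Apart from the epithelial list, the caput and corpus ranges of every summed list overlapped. The summed level of the epithelial miR-200 family was 20990 to 31796 CPM across caput libraries, 71973 to 84209 CPM across corpus libraries and 44552 to 61007 CPM across cauda libraries. Most of this sum was miR-141-3p, with means of 17882, 65694 and 40435 CPM. miR-141-3p and miR-200a-3p passed higher in the corpus than in the caput, whereas miR-200c-3p and miR-429-3p were higher without passing. miR-200b-3p went the other way, from 3668 to 2177 CPM, and did not pass. Striated muscle markers, 4 of 5 of them in the table, summed to 55.5 to 197 CPM across caput, 121 to 167 CPM across corpus and 1403 to 4146 CPM across cauda libraries, and miR-208b-3p among them had 3 reads or fewer in the caput and corpus. The smooth muscle pair summed to 50006 to 88769 CPM across caput, 88249 to 121178 CPM across corpus and 290934 to 353014 CPM across cauda libraries. Red blood cell markers, 3 of 4 in the table, summed to 122 to 468, 234 to 657 and 1595 to 2208 CPM in the same order. Among them miR-486a-5p had means of 231, 303 and 1749 CPM, miR-451a 39.0, 197 and 196 CPM, and miR-144-3p 4.54, 8.29 and 13.1 CPM. The 8 germ cell markers summed to 332 to 1010, 759 to 962 and 1921 to 2237 CPM, and the 5 leukocyte markers, which overlapped between the segments, to 231 to 530, 515 to 1149 and 392 to 1601 CPM. The most abundant germ cell marker by mean was miR-34c-5p, at 550, 350 and 1469 CPM. miR-741-3p, miR-871-3p, miR-465a-5p and miR-470-5p passed higher in the corpus than in the caput, with log2 fold changes of 1.86, 1.62, 1.89 and 1.97. miR-34c-5p (-0.36), miR-34b-5p (0.28) and miR-449a-5p (0.50) did not pass in this step, and miR-880-3p was not tested in it. The part of depth and of these cells in the fall of miR-191-5p was not tested. Fewer vesicles that carry miR-191-5p and less of it per vesicle cannot be told apart in such pools.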

How the data were processed

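Small RNA of epididymosomes from 3 segments was sequenced in 9 libraries. The authors screened the reads, counted them on known mature miRNAs with miRDeep2 and normalised for library size, and the deposited values are CPM. The submitters' processing notes name CASAVA 1.8.2, Bowtie 1.1.1 and limma. The genome build and miRBase release are not given in the sources used here. Authors' comparisons were not used.

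Groups and replicate numbers came from the labels. Every deposited CPM value was a whole multiple, within 0.02 reads, of the value of 1 read (100% of values in each library), which gave the library totals. At 10 CPM a library holds 15.5 to 113 reads. Counting errors and intervals of counts leave out the spread between pools, and p-values measure the spread between these pools only.

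Levels were tested with limma 3.58 in R 4.3 (lmFit, eBayes with trend) on log2(CPM + 1), with segment as the sole factor in a fit of all 9 libraries. Fold changes on this scale slightly understate changes of low miRNAs. Benjamini-Hochberg adjustment covered each miRNA whose mean reached 10 CPM in 1 or both of the segments compared. Arm ratios used limma with a pseudocount of 0.5 CPM, and the ratio of members an exact permutation test. The tests were first checked on simulated data. Alternatives were other scalings, filters, pseudocounts and models, a replicate block and each library left out. The plan also named 2 count models, which were not run, since the deposited values are CPM and too few of them were low enough for the recovered reads to be accepted as raw counts. The recovered reads were nevertheless used for limma-voom, TMM, median-of-ratios scaling and the counting errors, which carry this limit.

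The miRNAs named are the members, the 5 most like miR-191-5p and the 5 most like miR-425-5p (mean of at least 10 CPM in every segment), the 2 reference miRNAs with the largest and the 2 with the smallest caput to cauda change, the markers, and miR-10a-5p, miR-10b-5p and miR-143-3p. Others are named where a small count needed it, after their values were seen. The members and lists were chosen with earlier results of these data known. Scaling to the 16 reference miRNAs was added after the values were seen. Sequences and hairpin positions are RefSeq's for GRCm38.p6, matched by name, with gene spans also from GENCODE M21. Python 3.11, numpy 2.4, pandas 2.3 and matplotlib 3.10 were used.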

Additional observations from a re-analysis of the deposited data

How the results depend on the processing

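Alternatives other than left-out libraries gave 149 values, of which 135 kept the direction and the side of the threshold of the values reported, or moved by less than the spread. The caput to cauda fall of miR-191-5p passed in all 20 alternatives run, with log2 fold changes from -2.29 to -1.38 and limma adjusted p from 1.4e-04 to 0.0085. Its caput to corpus change passed under TMM (-1.49), median-of-ratios (-1.44), library sizes without the 3 abundant miRNAs (-1.21) and reference miRNA scaling (-1.36), and ran from -1.27 to -0.72 with 1 library left out. With replicate number as a block this change was -0.91 (limma adjusted p = 0.0287) and passed. The labels do not say what a shared number means, and same-numbered libraries of different segments correlated at -0.21 to 0.41 in their deviations, over 0.1 in 6 of 9 cases, and 2 of 9 libraries correlated best with their own number in both other segments, so the block was not taken as a pairing. With the block 83, 73 and 180 miRNAs were differentially accumulated from caput to corpus, corpus to cauda and caput to cauda, against 72, 65 and 171, and it changed no other call of a member.

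miR-425-5p reversed from the caput to the corpus under TMM (-0.14), median-of-ratios (-0.08) and reference scaling (-0.01). From the caput to the cauda it reversed under TMM (-0.57), median-of-ratios (-0.62), library sizes without the 3 abundant miRNAs (-0.05) and reference scaling (-0.25), and ran from -0.17 without the second caput library to 0.28 without the third. It was -0.11 without the third cauda library. miR-425-3p passed from the caput to the cauda under TMM (-1.01) and median-of-ratios (-1.05). The corpus to cauda arm ratio of miR-425 ran from -0.23 to 0.31 with 1 library left out, and was -0.09 and -0.01 without the first and the third corpus library. Differentially accumulated miRNAs numbered 46 to 102 from caput to corpus, 32 to 83 from corpus to cauda and 132 to 202 from caput to cauda with 1 library left out. The first count was 46 without the first corpus library, and the second was 41, 32, 38 and 39 without the first and second corpus and the first and second cauda libraries. The exact permutation p of the ratio of miR-191-5p to miR-425-5p between segments ran from 0.00714 to 0.0464 in the same way. Except for fewer libraries in the leave-one-out fits and the scalings themselves, the cause of these shifts was not tested. The 2 planned edgeR alternatives were not run. Depth limits miR-425-3p most, with as few as 17 reads in a library.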
